A study of Mus musculus with 4 samples.

Results

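Contractile mesenchymal cells are the cells of the islet vessel wall and stroma that carry the smooth muscle proteins Acta2, Tagln and Myh11. Among 6566 kept cells of 6948 barcodes in 4 libraries of mouse pancreatic islets, 84 cells met the rule that defines them here. Members were chosen by measured counts. A cell was a member where its summed count of Acta2, Tagln and Myh11 was at least 5 and exceeded both the summed count of 5 pericyte genes (Rgs5, Notch3, Abcc9, Pdgfrb, Ndufa4l2) and that of 4 fibroblast genes (Col3a1, Col1a2, Itm2a, Ptn). A member also held fewer than 5 counts over 6 endothelial genes (Kdr, Emcn, Cdh5, Pecam1, Plvap, Flt1) and less than 10% of its counts in the hormone genes Ins1, Ins2, Gcg and Sst. The same rule with the pericyte or the fibroblast sum as the largest, and at least 5, gave 235 pericyte-gated and 577 fibroblast-gated cells, which serve as the nearest neighbours. The 22 genes of the rule are given below as descriptions only.

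The series compared islets of mice labelled WT with islets of mice labelled Sin3A mutant, 2 libraries each, described as biological replicates. The primary islet cells were dissociated and captured by inDrop, in which each droplet marks the RNA of 1 cell near the 3′ end of the transcript, with amplification by linear CEL-Seq. Each title ends in _2426 or _3165, once per genotype, and the letters A and B stand for these endings in that order, with no meaning given for them. The allele, the promoter of any Cre, the cells in which Sin3a was changed, the age of the mice and any pooling of animals are not given in the sources used. Every run of 4 values below lists WT A, WT B, mutant A and mutant B.

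In smooth muscle, filaments of alpha smooth muscle actin (Acta2) slide along smooth muscle myosin (heavy chain Myh11, regulatory light chain Myl9). Calcium entry activates the kinase Mylk, which phosphorylates the light chain and starts contraction, and a phosphatase with the targeting subunits Ppp1r12a and Ppp1r12b reverses it. Serum response factor (Srf) with its partner myocardin (Myocd) drives many of these genes. In islets, arterioles carry contractile smooth muscle, capillaries carry pericytes with a smaller contractile apparatus, and activated fibroblasts can also carry Acta2 and Tagln. Sin3a is the scaffold of a corepressor complex that holds the histone deacetylases Hdac1 and Hdac2.

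The libraries held 9282497 to 12835201 counts in 1302 to 2445 barcodes, and kept cells had median counts from 4442 to 9996.5. Levels are given in CPM, the counts of a gene per 1e6 counts of the summed cells. Sin3a over all kept cells had 27.5, 43.4, 53.9 and 21.4 CPM, so the mutant label went with more Sin3a within A and with less within B. Tags come from the 3′ end and the changed part of the gene is not given, so this level does not check the labels, and every direction below is that of the labels. The 84 members were spread unevenly, as 15, 14, 1 and 54 cells with 82253, 49301, 1332 and 161632 counts. Mutant A is thus 1 cell in which a single count is worth 751 CPM. Median counts per member were 4876, 3296.5, 1332 and 2423.5, median mitochondrial shares 3.85%, 7.55%, 3.75% and 6.58%, and hormone genes made up 0.345%, 0.540%, 0.300% and 0.290% of the summed counts. Libraries shared 129 barcode names among kept cells over all pairs, no name was shared between members of different libraries, and 3 members shared a name with a kept cell of another library.

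The start regions of contractile genes are shown because the family is known for a shared control element there. Of 40 genes on a list of the contractile apparatus, 34 were found in the RefSeq promoter table (GRCm38.p6), with 41 windows from 250 bases before to 50 bases after a start. A CArG box, the element bound by Srf, was searched on both strands in its exact form of 10 letters, CC, then only A or T, then GG. It lay in 10 of the 41 windows (24.4%) and in 535 of 32851 windows of all genes (1.63%). Tagln, Myh11 and Actg2 were not in the promoter table. The windows of Acta2, Mylk, Tpm1, Flna and Csrp1 held no match to this exact form. Boxes with a G or C among the inner letters, or outside the windows, were not searched. These genes are therefore not shown to lack a CArG box. Windows with a match include overlapping ones of Ldb3 with the same box, Acta1 (6.79 CPM in the members) and Actc1 (0 CPM). The element CATTCC, known as MCAT and bound by TEAD factors, lay on either strand in 13 of the 41 windows (31.7%) and in 4817 of all windows (14.7%). A match is a description of the letters and not evidence of binding. Mylk and Flna are printed as contractile genes with many counts in the members, and Myl9 and Fhl1 were chosen after the search because they carry a CArG box. Each is cut to the bases before the start that lie outside annotated exons, capitals mark the motif, and positions count back from the start. They are Mylk at chr16:34784700-34784920 (plus strand, CATTCC from -158), Flna at chrX:74246556-74246784 (minus strand, CATTCC from -146), Myl9 at chr2:156775214-156775419 (plus strand, CArG box from -161) and Fhl1 at chrX:56779524-56779682 (plus strand, CArG box from -102).
Mylk: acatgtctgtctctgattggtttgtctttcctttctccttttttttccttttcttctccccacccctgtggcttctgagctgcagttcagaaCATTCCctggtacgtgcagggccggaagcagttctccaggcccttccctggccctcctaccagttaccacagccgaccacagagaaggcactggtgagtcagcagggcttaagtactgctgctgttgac
Flna: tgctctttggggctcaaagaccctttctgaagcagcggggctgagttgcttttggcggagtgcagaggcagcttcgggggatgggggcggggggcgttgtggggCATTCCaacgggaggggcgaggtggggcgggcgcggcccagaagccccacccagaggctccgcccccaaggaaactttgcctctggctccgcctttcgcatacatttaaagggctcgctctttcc
Myl9: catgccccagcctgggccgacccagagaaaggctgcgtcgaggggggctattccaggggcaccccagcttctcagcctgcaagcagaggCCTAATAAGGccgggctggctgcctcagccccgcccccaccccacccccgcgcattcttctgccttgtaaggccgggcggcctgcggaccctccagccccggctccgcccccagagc
Fhl1: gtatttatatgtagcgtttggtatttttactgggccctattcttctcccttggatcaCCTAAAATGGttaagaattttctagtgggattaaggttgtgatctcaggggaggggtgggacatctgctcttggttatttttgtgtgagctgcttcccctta

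The 3 genes of the rule describe how strongly the members carry the contractile program. Their summed count per cell ran from 5 to 350 with a median of 39, and 50 of 84 members held at least 30. Acta2 (chr19:34240336-34255585) had 6, 57 and 230 counts per cell at the lowest, median and highest member of WT A, 0, 18 and 48 in WT B, 7 in the cell of mutant A, and 0, 15.5 and 102 in mutant B. Tagln (chr9:45929628-45936058), which encodes the actin-binding protein transgelin, had 0, 20 and 65 counts in WT A, 1, 11 and 31 in WT B, 1 in mutant A and 3, 15 and 117 in mutant B. Myh11 (chr16:14194527-14292188) had 0, 6 and 75 in WT A, 0, 5 and 22 in WT B, 3 in mutant A and 0, 3 and 23 in mutant B. The ranges of the libraries with several members overlap for each gene, with the highest Acta2 and Myh11 cells in WT A and the highest Tagln cell in mutant B.

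The mix of the 3 genes also varied between libraries. Acta2 gave 64.8%, 46.8%, 63.6% and 44.2% of the summed count, Tagln 20.1%, 33.7%, 9.09% and 45.2%, and Myh11 15.1%, 19.4%, 27.3% and 10.5%. As levels of the summed members, Acta2 stood at 14370, 5375, 5255 and 6304 CPM. The 95% Poisson interval of the single cell of mutant A, which covers counting error only, was 2113 to 10828 CPM. Tagln stood at 4462, 3874, 751 and 6447 CPM, and Myh11 at 3343, 2231, 2252 and 1503 CPM. All 3 genes were counted in 67 of the 84 members. In the neighbours Acta2 pooled over libraries stood at 1080 CPM (pericyte-gated) and 654 CPM (fibroblast-gated), Tagln at 273 and 708 CPM, and Myh11 at 596 and 58.1 CPM.

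Some members lie near the edge of the rule. The sum was exactly 5 in 4 members, and 1 barcode with a sum of 4 was otherwise inside. The lead over the next sum was 1 or 2 counts in 6 members, while 10 barcodes missed membership by a lead of 0 or by up to 2 counts on the other side. Endothelial counts barred 5 further barcodes and hormone counts barred 0. The pericyte sum came next in 27 members, the fibroblast sum in 51, and both were equal in 6. Members other than the duct-marker cells described below are said to lie on the pericyte or the fibroblast side by that sum.

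Hormone-rich cells (at least 10% of counts in the 4 hormone genes) are set beside the members as a background. Free RNA, doublets and expression by the hormone-rich cells themselves are not told apart there. Acta2 was counted in 89.3% of members (median depth 2702) and in 2.95% of 2881 hormone-rich cells (median depth 7313). At a depth thinned to 1000 counts, which 81 members and 2694 hormone-rich cells reached, the shares were 86.4% and 0.186%. Thinned shares were 97.5% and 0.371% for Tagln and 65.4% and 0.186% for Myh11. Fhl1 and Tpm1, described below, were counted more often in hormone-rich cells, with thinned shares of 55.6% and 4.83% for Fhl1 and 90.1% and 11.5% for Tpm1. For other genes outside the rule, unthinned shares were 78.6% and 0.659% for the light chain Myl9, 82.1% and 4.30% for Mylk, and 47.6% and 1.15% for the intermediate filament desmin (Des).

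A group of 11 members goes against the label. They held at least 5 counts over 9 ductal genes, 2 of them in WT B and 9 in mutant B, and are called duct-marker cells after that rule, which was chosen after the values were seen. Acta2 was at 0 in 9 of them and at 1 count in the other 2, and Mylk was at 0 in all 11, while Tagln had 4 to 26 counts (median 8). Spp1, an extracellular matrix protein of duct cells, had 3 to 26 counts in each, and the epithelial adhesion gene Epcam was counted in all 11. Krt8 and Krt7, keratins of simple epithelia, were each counted in 10 of them. In the other 73 members Spp1, Krt8, Krt7, Krt19 and Epcam were all at 0. Acta2 was counted in each of those 73 (2 to 230 counts, median 21), Mylk in 69, Myh11 in 67 and Tagln in 72. In the pooled duct-marker cells Tagln stood at 1633 CPM, tropomyosin Tpm1 at 1664 CPM and the cytoskeletal LIM protein Csrp1 at 1402 CPM, but Acta2 at 30.8 CPM and Myh11 at 15.4 CPM. Where these cells hold much of a gene's counts, or a call changes without them, that is given below. Results without the duct-marker cells also leave out neighbours with at least 5 such counts. That took fibroblast-gated cells from 82, 125, 16 and 354 to 78, 121, 13 and 346. Pericyte-gated cells went from 34, 54, 47 and 100 to 34, 54, 46 and 98.

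Contractile cells made up 11.5% (15 of 131), 7.25% (14 of 193), 1.56% (1 of 64) and 10.6% (54 of 508) of the mesenchymal-gated cells, the sum of the 3 gates. Exact Clopper-Pearson 95% intervals were 6.55% to 18.2%, 4.02% to 11.9%, 0.0396% to 8.40% and 8.09% to 13.6% and cover counting error only. The value of mutant A was the lowest, though its interval reached into that of each other library, and the interval of mutant B overlapped those of both WT libraries. The mean was 9.35% ± 2.97 (SD, n = 2) in WT and 6.10% ± 6.41 (SD, n = 2) in the libraries labelled mutant. The difference of -3.26 percentage points had p = 0.667 in a two-sided exact permutation test, whose smallest possible p with 2 against 2 is 0.333. Without mutant A the difference was 1.28, in the other direction. With duct-marker cells left out of all 3 gates it was -3.68. Of all kept cells the members were 1.23%, 0.778%, 0.0872% and 2.25%, a difference of 0.165 percentage points between the group means (exact permutation p = 1.0).

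**Figure D1:**
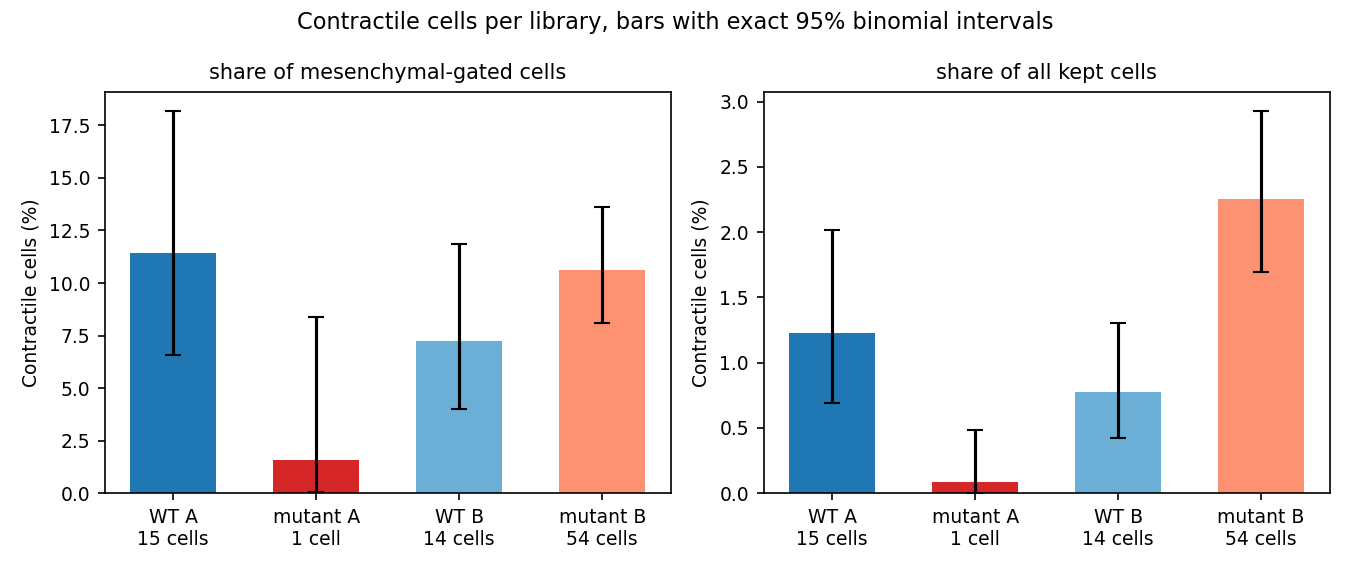
Percent of mesenchymal-gated cells that are contractile in each library, with exact 95% binomial intervals that cover counting error. WT A, WT B and mutant B lie between 7.25% and 11.5%, and mutant A, with 1 contractile cell of 64, lies at 1.56%.

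Genes were compared between genotypes in the summed members to ask whether the Sin3A mutant label goes with another expression in contractile cells. None of 1223 genes tested passed an adjusted p of 0.05 in either direction (edgeR's quasi-likelihood test with Benjamini-Hochberg adjustment, 0.0% called higher and 0.0% called lower). At an unadjusted p under 0.05 there was 1 gene higher and 0 lower, and DESeq2 called 0 and 0, also 0 and 0 unadjusted. With 1 cell in mutant A, this design gives little precision. Sin3a itself had 3, 4, 0 and 7 counts (36.5, 81.1, 0 and 43.3 CPM), was counted in 10 of 84 members (11.9%) and was below the filter on low counts, so it was not tested. A count of 0 in the cell of mutant A limits little, since 3 counts there would be 2252 CPM. Hdac1, the deacetylase of the Sin3 complex, was at 0 in all members.

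The contractile genes themselves did not pass between the labels. Acta2 differed by -1.43 ± 2.09 (log2, SE), Tagln by -0.34 ± 1.87 and Myh11 by -1.42 ± 1.73, each with an adjusted p of 0.999 in edgeR's test, and standard errors of this size leave room for several-fold differences either way. The gene of smallest p was Clu, the chaperone clusterin, at 12.2, 162, 0 and 507 CPM, a difference of 2.25 ± 1.14 that did not pass (adjusted p = 0.999, edgeR). Clu is on the ductal list, and its counts moved with the 11 duct-marker cells, of which mutant B holds 9. The adaptor gene Sorbs2 was next among the higher genes at 36.5, 264, 751 and 619 CPM (1.78 ± 1.15), followed by Sox6, Ezr and Dcdc2a. The duct-marker cells also held most counts of Sorbs2 (79, beside 4 on the pericyte side and 30 on the fibroblast side of the other members), of Ezr (71 beside 0 and 3) and of Dcdc2a (62 beside 0 and 0), but 5 beside 6 and 20 of Sox6. The ribosomal gene Rpl6 (-2.50 ± 1.28), Col6a2, Lgals1 and the actinin-binding LIM proteins Pdlim3 and Pdlim7 had the smallest p among the lower genes, none of which passed. Of 18 gene lists, 0 members passed in any, and the 23 tested of 40 contractile apparatus genes had a median of -1.20 beside -0.25 over all genes tested.

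Leaving out the single cell of mutant A left 2587 genes to test, with the lone mutant library assumed to vary as the WT libraries do, and 2 genes passed in each direction. Among the higher, Nov, a matricellular protein of the CCN family, had 0, 5 and 98 counts in WT A, WT B and mutant B (3.82 ± 0.96). Few cells of mutant B carried it. On the fibroblast side 9 of 33 members held 80 counts, with 44 in 1 cell, and duct-marker cells held 18. The adhesion gene Clmp with 39, 1 and 0 counts and the calmodulin-binding peptide gene Pcp4 with 38, 0 and 0 counts were lower in edgeR's test (adjusted p = 0.0155 and 0.0156). Nov was thus high in mutant B, and Clmp and Pcp4 were carried by WT A and nearly absent from WT B.

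The members were next set beside pericyte-gated and fibroblast-gated cells of the same libraries. The gates were cut from these cells by the sums being compared, so the values describe what each gate holds and are no check of it. Against pericyte-gated cells 39 of 2679 genes were higher in contractile cells (1.46%) and 53 lower (1.98%), and against fibroblast-gated cells 52 of 2610 were higher (1.99%) and 72 lower (2.76%), at an edgeR adjusted p under 0.05 with the library as block and the genes of the rule left out. Differences are log2 with the SE. Without mutant B, which holds 54 of the 84 members, 0 genes passed in either direction against pericyte-gated cells (27 higher and 78 lower unadjusted), and 22 and 47 passed against fibroblast-gated cells. Without mutant A the counts were 62 and 72 against pericyte-gated and 135 and 126 against fibroblast-gated cells, without WT A 16 and 11 and 38 and 34, and without WT B 11 and 16 and 11 and 17.

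**Figure D2:**
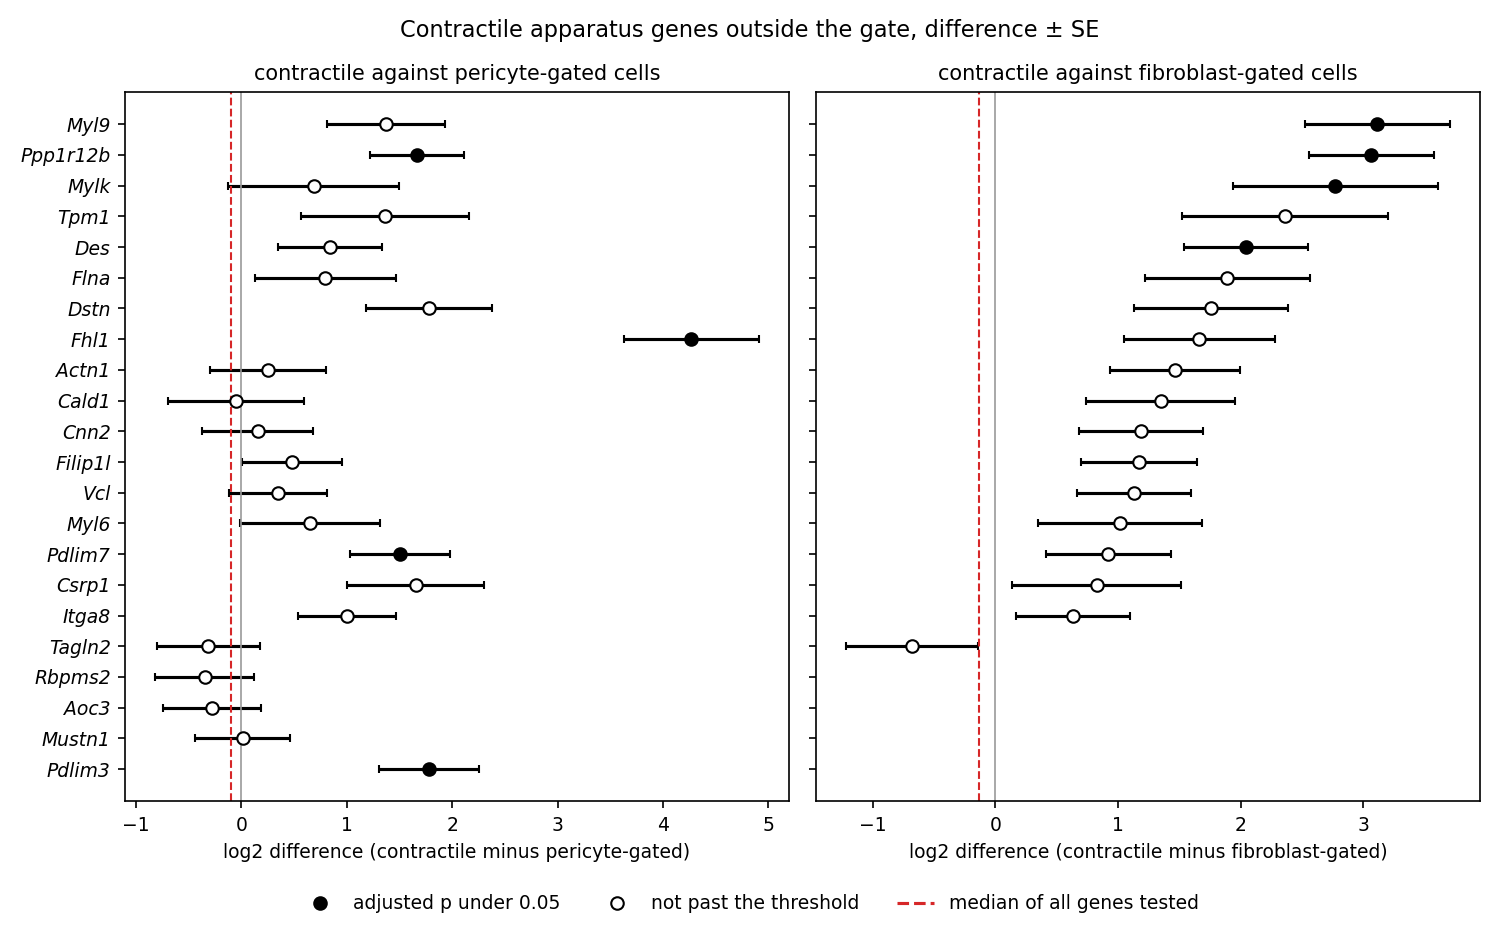
Log2 differences with SE of contractile apparatus genes outside the rule, contractile against pericyte-gated and against fibroblast-gated cells, over 4 libraries. Myl9 lies at 1.37 against pericyte-gated and 3.11 against fibroblast-gated cells, and Mylk at 0.69 and 2.77.

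Motor and light chain genes set the members apart from fibroblast-gated cells more than from pericyte-gated cells. Myl9, the regulatory light chain, stood at 2346, 852, 1502 and 650 CPM, against 469, 355, 552 and 256 CPM in pericyte-gated and 131, 92.2, 31.9 and 152 CPM in fibroblast-gated cells. Every library's contractile level lay above every level in either neighbour, with that of mutant A resting on 2 counts. The difference was 1.37 ± 0.56 against pericyte-gated cells, which did not pass, and 3.11 ± 0.59 against fibroblast-gated cells, which did. Mylk, the kinase that acts on Myl9, stood at 11112, 1562, 6006 and 1813 CPM, against 1803, 1373, 1479 and 1716 CPM in pericyte-gated cells, with WT B inside and mutant B just above the range of those cells. In fibroblast-gated cells Mylk was at 607, 325, 128 and 483 CPM, below every contractile value, with a difference of 2.77 ± 0.84 that passed.

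The phosphatase subunit Ppp1r12b was higher in the members than in both neighbours. It stood at 571, 365, 751 and 272 CPM, against 115, 169, 122 and 83.9 CPM in pericyte-gated and 56.9, 42.7, 31.9 and 32.4 CPM in fibroblast-gated cells. The 751 CPM of mutant A is 1 count. The differences of 1.66 ± 0.45 and 3.07 ± 0.51 both passed. Desmin (Des) was at 1398, 345, 0 and 247 CPM, against 183, 106, 23.9 and 83.6 CPM in fibroblast-gated cells (2.04 ± 0.50, passed) and 346, 325, 309 and 147 CPM in pericyte-gated cells (0.84 ± 0.49, did not pass).

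Thin filament and LIM protein genes followed several patterns. Tpm1, which lies along actin, stood at 6808, 3286, 751 and 2803 CPM, a difference of 1.36 ± 0.80 from pericyte-gated cells that did not pass. From fibroblast-gated cells Tpm1 differed by 2.36 ± 0.84, which did not pass, and by 2.59 ± 0.83 without the duct-marker cells, which did. Fhl1, a LIM protein of muscle, stood at 1824, 203, 0 and 1231 CPM, against 28.8, 36.1, 0 and 79.7 CPM in pericyte-gated cells (4.27 ± 0.64, passed), and was not tested there without the duct-marker cells. In fibroblast-gated cells Fhl1 stood at 139, 178, 55.8 and 499 CPM (1.66 ± 0.61, did not pass). Pdlim3 was at 498, 426, 0 and 124 CPM (1.78 ± 0.47 against pericyte-gated cells, passed), and Pdlim7, at 802, 162, 0 and 136 CPM, passed there too. Caldesmon (Cald1) was at 1690, 1521, 2252 and 1268 CPM and differed by -0.05 ± 0.64 from pericyte-gated cells.

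Counted over the list, 37 contractile apparatus genes lie outside the rule. Against pericyte-gated cells 22 were tested and 4 were higher (Pdlim3, Pdlim7, Ppp1r12b and Fhl1), with a median of 0.74 beside -0.10 over all genes. Without the duct-marker cells 3 of 20 were higher, beside 26 of 2188 over all genes. Against fibroblast-gated cells 18 were tested and 4 were higher (Myl9, Mylk, Des and Ppp1r12b), with a median of 1.41 beside -0.13 over all genes. With such cells left out of both gates, 9 of 16 were higher, the added ones being Tpm1, Flna, Actn1, Dstn and Fhl1. Over all genes that fit called 55 of 1684 higher. Summed over all 40 genes the members held 70429, 26774, 30781 and 32735 CPM, pericyte-gated cells 11123 to 14208 CPM and fibroblast-gated cells 4242 to 8799 CPM. Actc1, the cardiac actin, was at 0 in the members.

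Some markers of mature smooth muscle had most of their counts in WT A. Actg2, the enteric smooth muscle actin, stood at 997, 0, 0 and 148 CPM, the actin-binding calponin Cnn1 at 790, 0, 0 and 30.9 CPM, and Synpo2, an actin-bundling protein, at 778, 40.6, 0 and 61.9 CPM. All 3 were under the filter on low counts in the gate comparisons and were not tested there. Within WT A they came from few cells. The 6 of 15 members with at least 3 counts of Cnn1 held 64 of its 65 counts, 63 of 64 of Synpo2, 71 of 82 of Actg2 and 850 of 914 of Mylk, and 1 to 5 counts each of the elastin gene Eln, 16 of the 443 in that library. These cells were picked by their Cnn1 counts and are described only. WT A also had the deepest members, at a median of 4876 counts, and the part of depth in this order was not tested. Among the regulators, Srf stood at 268, 162, 0 and 105 CPM and Myocd at 36.5, 20.3, 0 and 18.6 CPM, and Tbx18 was at 0. Of 26 regulator genes, 15 were tested against each neighbour, and Jag1, a Notch ligand, passed against fibroblast-gated cells at 280, 183, 2252 and 291 CPM (2.02 ± 0.48), while 0 passed against pericyte-gated cells.

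Of 38 genes for calcium and tone, 19 were tested against pericyte-gated cells, and 0 were higher and 3 lower, with a median of -0.47. Agtr1a, the angiotensin II receptor, stood at 24.3, 101, 2252 and 43.3 CPM, against 425, 319, 167 and 365 CPM (-2.37 ± 0.54), with the 2252 CPM of mutant A resting on 3 counts. The potassium channel gene Kcnj8, a pericyte marker, stood at 134, 20.3, 0 and 18.6 CPM, against 382, 145, 198 and 117 CPM (-1.98 ± 0.55). Rgs4, which dampens G protein signals, differed by -2.04 ± 0.54 and did not pass without the duct-marker cells. Without the duct-marker cells 6 of 14 tested were higher than in fibroblast-gated cells (Atp2b4, Gucy1a3, Gucy1b3, Pde3a, Pde5a and Ednrb), beside 55 of 1684 over all genes, and Casq2 was not tested. With all members 3 of 16 tested were higher. The 3 were Casq2, a calcium store protein, at 97.3, 426, 751 and 80.4 CPM against 0, 6.83, 7.97 and 2.95 CPM (5.40 ± 0.60), Gucy1a3, the nitric oxide receptor subunit (1.75 ± 0.46), and Pde5a, the cyclic GMP phosphodiesterase (1.79 ± 0.46). Casq2 differed by -0.28 ± 0.47 from pericyte-gated cells, where it stood at 180, 404, 203 and 105 CPM.

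Eln and Col1a1 were higher in the summed members than in pericyte-gated cells, while the matrix list as a whole had a median below 0. Eln, the elastic fibre protein of arterial walls (chr5:134702595-134747368), stood at 5386, 933, 0 and 6261 CPM, against 209, 108, 106 and 105 CPM. The 3 libraries with several members lay above every pericyte-gated library, and the cell of mutant A had none. The difference was 4.04 ± 0.88 and passed, 4.26 ± 0.91 without the duct-marker cells. In fibroblast-gated cells Eln stood at 1726, 1187, 279 and 2969 CPM, on both sides of the contractile values (0.45 ± 0.86, did not pass). Col1a1, a fibrillar collagen chain, stood at 4583, 284, 0 and 1046 CPM, against 43.3, 42.2, 91.2 and 130 CPM (3.60 ± 0.72, passed), and below the 7067, 4033, 2018 and 5565 CPM of fibroblast-gated cells in every library. Members on the fibroblast side held 554 of its counts, those on the pericyte side 4 and duct-marker cells 2. On the pericyte side it stood at 0, 69.3 and 92.5 CPM in WT A, WT B and mutant B. Mgp, an inhibitor of calcification, stood at 122, 142, 0 and 0 CPM and was lower than in pericyte-gated cells (-2.10 ± 0.54). Of 26 genes of basement membrane and elastic matrix, 17 were tested, with Eln higher, Mgp lower and a median of -0.52.

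Other genes higher than in pericyte-gated cells in each of the 4 libraries were few. In mutant A each of them rests on 1 count, worth 751 CPM in its 1 cell. Whether a gene was higher in 4 or in 3 libraries thus turned on that count. Serpinb6b, an intracellular protease inhibitor, stood at 85.1, 243, 751 and 217 CPM, against 14.4 to 42.2 CPM (2.80 ± 0.51, and 2.26 ± 0.54 without the duct-marker cells, which held 28 of its counts beside 8 on the pericyte side and 17 on the fibroblast side). Sorbs2 differed by 2.67 ± 0.53, but was not tested without the duct-marker cells. The receptor chain Il13ra1 stood at 255, 487, 751 and 291 CPM, against 30.4 to 151 CPM (1.80 ± 0.45), and Fgfr1 (1.62 ± 0.49), which did not pass without the duct-marker cells, and Pbxip1 (1.56 ± 0.48) completed them. Palld, an actin-crosslinking protein (3.29 ± 0.53), the ligand Gas6 (3.22 ± 0.52), the chemokine Cxcl12 (2.57 ± 0.50), the annexin Anxa3 (2.54 ± 0.50), the Hippo pathway target Amotl2 (2.40 ± 0.48), the matrix protein Thbs2 (2.36 ± 0.54) and the nonmuscle myosin Myh10 (2.24 ± 0.48) were higher in the 3 libraries with several members and at 0 in the cell of mutant A. The duct-marker cells held much of some of these. Gas6 had 77 counts in them, beside 8 on the pericyte side and 34 on the fibroblast side of the other members, and Anxa3 85 beside 8 and 54. Amotl2 had 37 beside 4 and 62, and Myh10 38 beside 3 and 63. Without the duct-marker cells the differences were 2.70 ± 0.50 (Gas6), 1.77 ± 0.51 (Anxa3), 2.10 ± 0.50 (Amotl2) and 1.94 ± 0.49 (Myh10), and each still passed.

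Genes lower than in pericyte-gated cells included 4 on the pericyte list. Outside that list, the cotransporter Slc12a2 stood at 97.3, 264, 0 and 204 CPM, against 2415, 2993, 2097 and 3151 CPM, with no overlap between the gates (-4.06 ± 0.79). On it, Steap4, a metalloreductase, stood at 12.2, 0, 0 and 0 CPM, against 79.3, 78.3, 147 and 210 CPM (-5.02 ± 0.89). Cygb, a globin of stellate cells and pericytes (-4.19 ± 0.64), and Higd1b (-2.12 ± 0.62) were lower as well, and so were Thy1 (-2.77 ± 0.56) and the protocadherin Pcdh19 (-3.25 ± 0.71), which are not on the list. Higd1b did not pass and Steap4 was not tested once the duct-marker cells were left out. Of 19 pericyte genes outside the rule, 13 were tested and 4 were lower (Kcnj8, Higd1b, Steap4 and Cygb), with a median of -1.56. Summed over the whole list, the members held 5410, 8823, 19520 and 4888 CPM, against 18650 to 21869 CPM in pericyte-gated cells.

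Surface genes shared with pericytes were higher in the summed members than in fibroblast-gated cells. The water channel Aqp1 stood at 122, 264, 751 and 74.2 CPM, against 0, 8.54, 0 and 0.983 CPM (5.56 ± 0.64). Cd93, a lectin-like receptor, stood at 182, 527, 1502 and 204 CPM (4.78 ± 0.52), and the caveolar coat gene Cav1 at 1058, 892, 3003 and 705 CPM, against 37.9, 51.2, 0 and 76.7 CPM (4.12 ± 0.53). For these genes the difference from pericyte-gated cells was 0.48 ± 0.47 (Aqp1), 0.31 ± 0.45 (Cd93) and -0.01 ± 0.57 (Cav1). Not all parts of the members carried them alike. Aqp1 had 29 counts on the pericyte side, 2 on the fibroblast side and 3 in duct-marker cells. Cd93 had 53, 18 and 0 in that order, and Cav1 93, 150 and 4. The laminin receptor Bcam (4.11 ± 0.50), the basement membrane gene Frem2 (3.67 ± 0.51), Serpinb6b (3.39 ± 0.51) and the matricellular gene Tinagl1 (2.79 ± 0.49) were also higher in each library. In the cell of mutant A, Aqp1, Frem2 and Serpinb6b had 1 count each, Cd93 2, Bcam and Tinagl1 3 each and Cav1 4. Aqp1, Casq2, Bcam and Serpinb6b were not tested against fibroblast-gated cells without the duct-marker cells. Of 19 pericyte genes 8 were tested, with Cspg4 (NG2), Mcam and Gm13889 higher (1.87 ± 0.46, 1.92 ± 0.48 and 2.91 ± 0.57) and Cygb lower (-3.72 ± 0.70). Igfbp5, which binds insulin-like growth factors, stood at 936, 3083, 4505 and 786 CPM and was higher by 2.70 ± 0.61.

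Fibroblast genes were lower in the members. Pdgfra, the receptor that marks fibroblasts, stood at 0, 0, 0 and 6.19 CPM, against 200, 275, 144 and 278 CPM (-6.14 ± 0.98). Of 26 fibroblast genes outside the rule 21 were tested, 8 were lower (Lum, Pdgfra, Mfap4, Dlk1, Fbln1, Col6a1, Col6a2 and Islr), 0 were higher, and the median was -1.79. The small proteoglycan Lum differed by -3.17 ± 0.62 and the fibulin Fbln1 by -5.15 ± 0.94. Cd34 (-5.45 ± 0.93) and the laminin chain Lama2 (-3.14 ± 0.71) were lower too, but Lama2 was not tested without the duct-marker cells. Gap43, a growth cone protein, was at 0 in all members and therefore at least 24.5-fold lower, with a floor of 3 counts over all members, and Agtr2 was at least 16.6-fold lower by the same floor. Schwann cell genes moved with this comparison, since 3 of 3 tested were lower, Sox10 and Mbp among them, and the Schwann list held 372 to 1555 CPM in fibroblast-gated cells and 0 to 195 CPM in the members. The part of Schwann cells among the fibroblast-gated cells in these differences was not tested, and no Schwann gene could be tested without the duct-marker cells.

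The members were divided by which sum came second, a split that follows the rule and is described with no test. The name of each side states this sum and not a likeness to that cell type. The fibroblast side includes the 6 members of WT A with at least 3 counts of Cnn1, which held 16 of the 443 Eln counts there. Duct-marker cells aside, the pericyte sum came second in 24 members (3, 9, 1 and 11) and the fibroblast sum in 48 (12, 3, 0 and 33), with 1 tie. The values that follow are WT A, WT B and mutant B, since mutant A has no cell on the fibroblast side. Acta2 was high on both sides, at 15926, 3135 and 9060 CPM on the fibroblast side and 6031, 8249 and 11058 CPM on the pericyte side.

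Matrix genes had higher summed levels on the fibroblast side of the members. Eln stood at 6232, 3948 and 11586 CPM there and at 850, 416 and 1157 CPM on the pericyte side. The value of WT B rests on 1 of its 3 cells, which held 30 of 34 Eln counts, and without that cell it was 878 CPM, inside the range of the pericyte side. In WT A 1 cell held 234 of 432 counts, and the level without it was 3169 CPM, while in mutant B 31 of 33 cells had Eln. Col1a1 stood at 5439, 1393 and 1957 CPM, against 0, 69.3 and 92.5 CPM. The matricellular gene Postn stood at 2755, 2322 and 6048 CPM, against 850, 139 and 879 CPM, and Thbs2 at 1154, 1045 and 2585 CPM, against 387, 277 and 46.3 CPM. Fbln5, which helps to assemble elastic fibres, stood at 274, 813 and 439 CPM and was at 0 in every library on the pericyte side. In WT B 1 cell held all Thbs2 and Fbln5 counts and 19 of 20 of Postn, so that without it these were at 0, 0 and 219 CPM. Cnn1 was counted on the fibroblast side alone, at 938, 0 and 59.3 CPM.

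Other genes had higher summed levels on the pericyte side. Casq2 stood there at 464, 693 and 509 CPM, against 28.9, 116 and 23.7 CPM. Cd93 stood at 850, 901 and 648 CPM, against 57.7, 0 and 166 CPM, and the Notch target Nrarp at 464, 866 and 1296 CPM, against 14.4, 464 and 332 CPM. The WT A values of Casq2 and Cd93 there come from 1 of 3 cells. The secreted protein gene Reln stood at 232, 1421 and 1296 CPM, against 0, 1393 and 166 CPM, where 11 of the 12 fibroblast-side counts of WT B lay in 1 cell. Myh11 was at 928, 3501 and 3840 CPM on the pericyte side and 3794, 1045 and 1791 CPM on the fibroblast side, with no order that held in all libraries. Nov, described above for the genotypes without mutant A, was highest on the fibroblast side of mutant B, at 949 CPM. Without the 1 cell with most counts it was 449 CPM there.

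**Figure D3:**
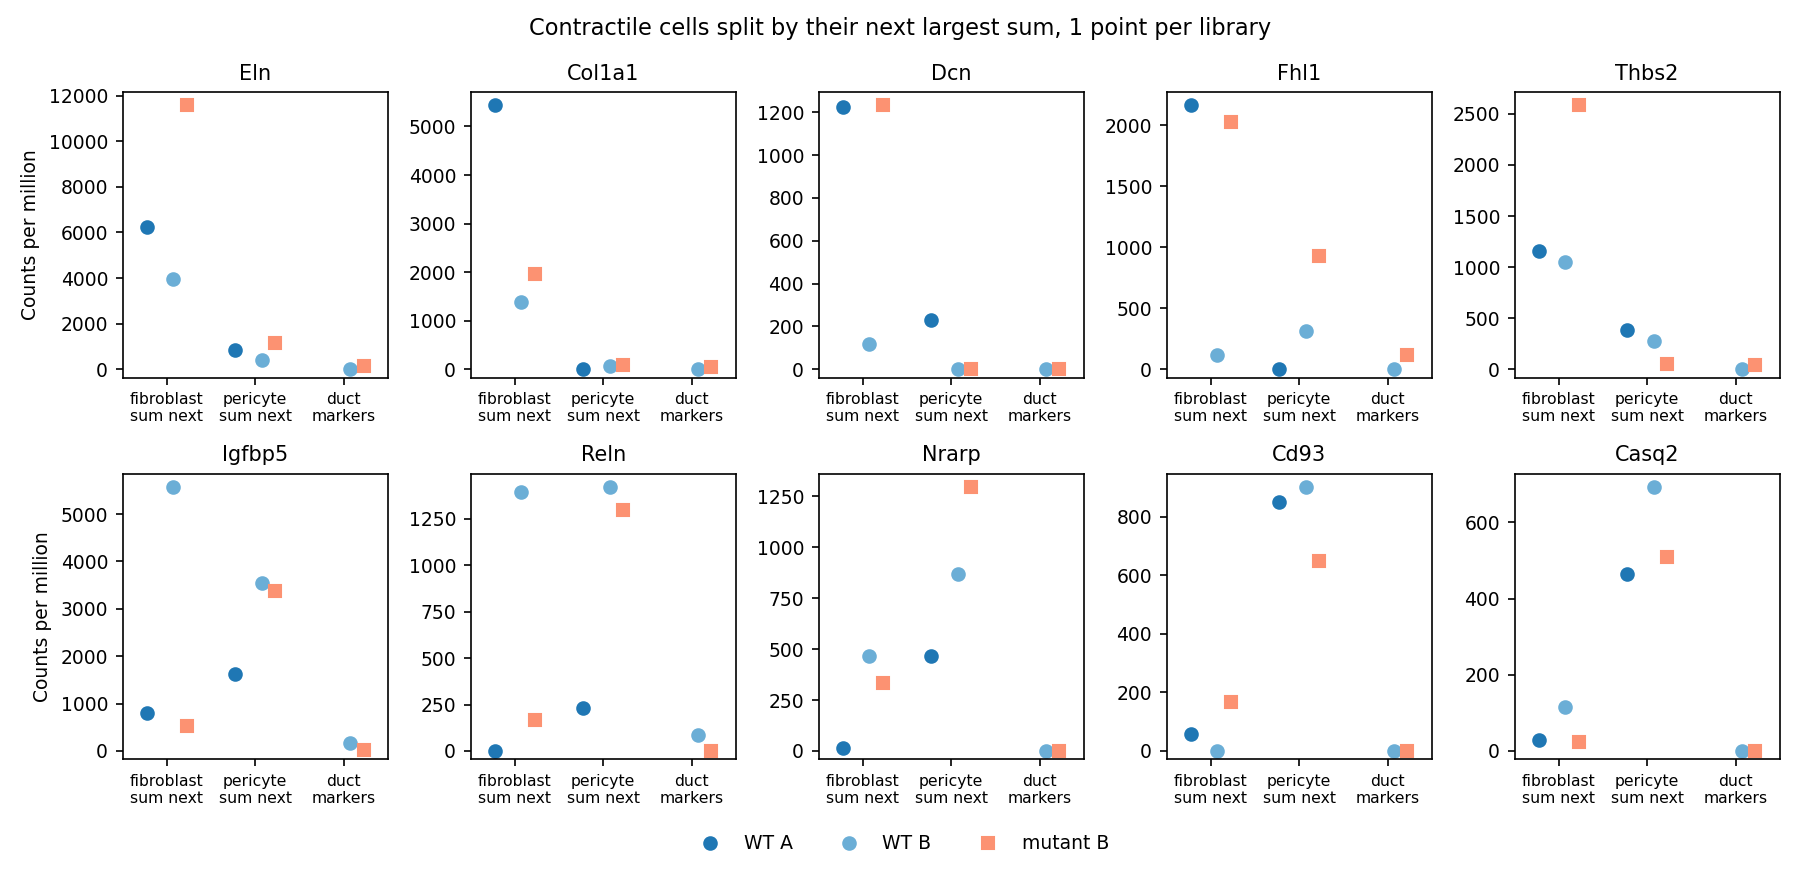
Levels in CPM of matrix and surface genes in members with the fibroblast sum second, members with the pericyte sum second and duct-marker cells, 1 point per library. Eln runs from 3948 to 11586 CPM on the fibroblast side and from 416 to 1157 CPM on the pericyte side in WT A, WT B and mutant B, with 30 of the 34 WT B counts on the fibroblast side in 1 cell.

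Lists of other cell types were summed to see what else the members carry. Immune genes summed to 0 to 68.1 CPM (5 of 15 detected), acinar genes to 0 to 40.6 CPM (4 of 12) and erythroid genes to 0 to 122 CPM. Endothelial genes outside the rule summed to 182 to 1502 CPM, with Cldn5 and Sox18 at 0. Endocrine genes, which free RNA also carries, summed to 3003 to 7647 CPM, and 5 members held a hormone share of 2.24% to 9.27%. The ductal list summed to 24.3, 1278, 0 and 1670 CPM, which follows where the duct-marker cells lie. The mesothelial list reached 1021 to 4505 CPM mostly through Igfbp5 and Krt8, with 10 of 16 genes detected. Upk3b, Lrrn4, Gpm6a, Cldn15, Rspo1 and Bnc1 were at 0, Wt1 had 6 and Nkain4 7 counts on the fibroblast side, and Msln, Upk1b and Muc16 had 1, 2 and 1 counts in duct-marker cells. Immediate early genes, which dissociation of tissue is known to induce, summed to 17424 to 21772 CPM. Of that list 19 genes were tested against pericyte-gated cells, where Ier3 was higher (not called without the duct-marker cells), and 20 against fibroblast-gated cells, where 0 passed. Of cell cycle genes 17 and 14, and of the Sin3 complex 7 and 7, were tested in these comparisons, and 0 passed. Of the TGF-beta and YAP targets 13 and 14 were tested, with Amotl2 higher than in pericyte-gated cells and Ctgf, a YAP target, higher than in fibroblast-gated cells (1.73 ± 0.51).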

How the data were processed

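Islet cells of 4 libraries (2 WT, 2 Sin3A mutant) were measured by inDrop. The authors deposited whole-number counts per gene and barcode, not normalized. Of builds, the submitters' processing notes list GRCh38 and GRCm38. What aligner, annotation, counting program, barcode collapsing and barcode filter were used is not given in the sources here. Of 38459 features the 38457 marked as mouse were used.

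Kept barcodes had 500 or more counts, 250 or more genes and a mitochondrial share up to 25% (scanpy 1.11.5, Python 3.11.15). Scrublet called 13, 7, 3 and 17 doublets (WT A, WT B, mutant A, mutant B), which stayed in because the membership rule keeps them; 1 was a member. Counts were summed per library and gate, so the library was the unit. The labels state biological replicates and no more, so each p-value reflects the spread among these libraries, which may be technical. Sums were tested with edgeR 4.0.16 (R 4.3.3): quasi-likelihood F test, TMM normalization, filterByExpr for low counts, Benjamini-Hochberg adjusted p under 0.05 over all genes tested, with the library as block between gates. The SE is the log2 difference divided by the square root of F. DESeq2 1.42.0 was an alternative. Shares were compared by exact permutation (scipy 1.17.1). The script was tested on simulated data. Summed members held 1332 counts (mutant A) to 161632 counts (mutant B), which sets the precision per sample.

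Named genes are up to 10 per direction with the largest difference past the threshold, the same direction in every library and at least 30 CPM in the higher gate, and those of smallest p or highest level in 18 gene lists. A second set, with the same direction in the 3 libraries other than mutant A, was added after the values were seen. A few genes that these rules took are not reported here. The members, lists and rules were chosen with earlier results of these data known. Sequences are from RefSeq tables on GRCm38.p6, exons from GENCODE M21. Counts come from 3′ tags, so levels are compared between cells for one gene and not between genes. The files' strand setting is not given, so reads of overlapping antisense genes cannot be told apart.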

Additional observations from a re-analysis of the deposited data

Results flagged for a closer look

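The percent of mesenchymal-gated cells that were contractile moved in opposite directions within the pairs of libraries that share a title number. Mutant minus WT was -9.89 percentage points within A and 3.38 percentage points within B. The difference between these 2 values was not tested, since each rests on 1 library per label, and mutant A held 1 contractile cell.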

How the results depend on the processing

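Between genotypes, 0 genes passed in either direction under every alternative except leaving out mutant A, so that leaving out 1 library gave 0 to 2 higher and 0 to 2 lower. The title numbers are shared by groups. Deviations of WT A and mutant A from the means of their genotypes had a correlation of -0.035 over 304 genes. With 1 cell of 1332 counts in mutant A, that value cannot tell whether libraries of the same number vary together. The fit with the replicate block gave 0 and 0. Against pericyte-gated cells (39 higher, 53 lower), no filter on low counts gave 118 higher and 51 lower, but only 11 and 27 were shared with the main fit. DESeq2 gave 38 higher and 82 lower, of which 32 and 47 were shared. Leaving out the duct-marker cells (chosen after seeing the data) gave 26 higher and 31 lower, of which 21 and 30 were shared. Leaving out 1 library gave 0 to 62 higher and 0 to 72 lower, with 0 and 0 without mutant B, 16 and 11 without WT A, 11 and 16 without WT B, and 62 and 72 without mutant A. Against fibroblast-gated cells (52 higher, 72 lower), no filter gave 92 higher and 186 lower, of which 19 and 63 were shared with the main fit. DESeq2 gave 96 and 109, of which 49 and 61 were shared. With 1 library left out there were 11 to 135 higher and 17 to 126 lower, the lowest without WT B and the highest without mutant A. DESeq2-type size factors gave 52 and 102 there and moved the median of all genes from -0.13 to -0.25. In the genotype fit they moved it from -0.25 to -0.04. The difference in percent contractile was reversed without mutant A (1.28) and ran from -7.79 to 1.28 over the libraries left out. The causes of these shifts were not tested. Leaving out a library leaves fewer cells, but the genes tested moved both ways. They rose from 1223 to 2587 between genotypes without mutant A. Against pericyte-gated cells they fell from 2679 to 2000 without mutant B. Depth limits the genotype comparison, with 1 cell of 1332 counts in mutant A.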
